A study of Mus musculus with 4 samples.

Results

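Rab GTPases, TBC domain proteins and the exocyst form the machinery that routes membrane vesicles through the cell. They were described here as 99 genes on the array, out of 20660 genes with a symbol. Members were all genes with symbols of the Rab, Tbc1d or Exoc series: 57 Rab genes, 31 Tbc1d genes and 11 Exoc genes. Where a gene had several probes, the brightest on average over the 4 arrays (mean log2 processed signal) stood for it. That mean signal chose the probe, so levels are given as a description, and the family was picked with earlier results of these data known. RefSeq also lists Exoc3l2, Rab36 and Rab44, for which no probe accession matched and which were not analysed here.

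The samples came from EB5, a mouse embryonic stem (ES) cell line, in which the fluorescent protein Venus reports on the homeobox gene Hoxb6. After 6 days of differentiation on a feeder layer of OP9 stroma, cells bearing the VEGF receptor Flk-1, a surface mark of mesoderm and of the vascular lineage, were sorted into a Venus-negative and a Venus-positive fraction, each hybridised to 2 single-colour Agilent arrays. All cells of both groups share the EB5 line, the reporter and the day of culture, and the labels do not say whether replicates were separate cultures. If they were not, p-values measure technical spread alone. Feeder cells were part of the culture, and the labels name no step against them beyond the sort. The 4 arrays lay on 1 slide with 1 scan. Both Venus-negative arrays were in slide column 2 and both Venus-positive arrays in column 3, so column and fraction cannot be told apart, whereas the slide row went with the replicate number.

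A Rab protein is a small GTPase that marks a membrane. In its GTP form it recruits effectors such as motors and tethers, and it is switched off by GTPase-activating proteins, most of which carry a TBC domain. The exocyst is a tethering complex of subunits encoded by Exoc1 to Exoc8, with Exoc6b as a paralog of Exoc6, that holds secretory and recycling vesicles at the plasma membrane before SNARE proteins fuse them. In cells that build vessels this traffic is known to carry adhesion molecules and growth factor receptors, Flk-1 among them, to and from the surface.

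Signals are given as log2 processed signal relative to each array's 75th percentile, so that 0 is the signal below which 75 percent of the spots on that array lie. Differences are Venus-positive minus Venus-negative. Kdr, which encodes Flk-1, was bright in both fractions, at 5.72 and 5.55 in Venus-negative against 6.06 and 6.08 in Venus-positive cells. Hoxb6 stood at 1.23 and 0.98 against 2.00 and 2.24, a difference of 1.01 ± 0.16 (SE) with an adjusted p of 0.0716 in limma. The test took in 94 of the 99 members, those whose spots were well above background in each replicate of 1 or both fractions. Well above background is the scanner software's own criterion. In all 4 arrays 91 members met it, and 3 (Rab39b, Rab40b and Rab42) entered through a single fraction. The 5 members not tested were Rab27a, Rab9b, Tbc1d8, Tbc1d21 and the opposite-strand transcript Tbc1d22bos. Tbc1d22bos read -0.52 on Venus-negative array 1 and -5.96, -6.73 and -7.08 on the others.

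Signals of most members lay close together in the fractions, and 3 genes rose in the Venus-positive cells. These were Rab15, a Rab of early and recycling endosomes, Tbc1d30, a TBC protein, and Exoc3l4, a relative of the exocyst subunit gene Exoc3. Across all 23547 features tested (genes and unnamed probes), limma called 0.777% higher and 1.36% lower, 2.14% in all, with p-values adjusted by Benjamini and Hochberg's method and a threshold of 0.05. Among the 94 members tested, 3 passed as higher and 0 as lower. Without adjustment (p under 0.05) 22 of the members were higher and 9 lower, against 12.3% and 11.4% of all features. The log2 difference was under 0.5 in size for 70 of the 94, at least 1 for 4 (Rab15, Tbc1d30, Exoc3l4 and Tbc1d2) and -1 or less for 4. These were Rab37, Rab26 and Rab20 and, through Venus-positive readings not above background, Rab39b, whose bound was -0.87. Differences of those sizes were found in 3.77% and 4.26% of all features. In sorted bulk samples fewer cells that express a gene and less RNA per cell cannot be told apart.

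Rab15, which in mammalian cells governs the return of transferrin receptor from endosomes, had the largest increase among the members. Its signal was 3.11 and 2.74 in Venus-negative cells against 4.88 and 4.68 in Venus-positive cells. The fractions did not overlap, and the gap between them exceeded the spread within either. The difference was 1.85 ± 0.18 (SE), or 3.62-fold, with an adjusted p of 0.0434. A second Rab15 probe was not well above background on either Venus-negative array and lay at -3.52 and -3.79 in the Venus-positive cells, at least 2.19-fold higher. Averaging both probes gave a difference of 1.56 with an adjusted p of 0.0553.

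Tbc1d30 encodes a protein that in human cells acts on Rab8a and restrains primary cilium formation. It read -4.38 and -4.31 in Venus-negative and -2.76 and -2.71 in Venus-positive cells. The replicates lay close together and the fractions were well apart, but the Venus-negative signals sat near the lowest signals counted as well above background, -4.75 and -4.86 on those arrays. The difference was 1.61 ± 0.10, or 3.06-fold, with an adjusted p of 0.0342. With model-based background correction (normexp), whose added offset keeps changes of dim signals small, it was 0.61 (adjusted p = 0.0363).

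Exoc3l4 read 1.14 and 0.89 in Venus-negative and 2.34 and 2.32 in Venus-positive cells. Its fractions did not overlap, and the difference was 1.32 ± 0.13, or 2.49-fold (adjusted p = 0.0436). With quantile normalisation the adjusted p was 0.0508. All 3 increases lost the threshold when any single array was left out, at adjusted p-values from 0.127 to 0.184, and without the filter on dim signals, at 0.143 to 0.155. The whole array then gave 0 calls in limma as well. Without an array the differences ran from 1.67 to 2.04 for Rab15, 1.58 to 1.64 for Tbc1d30 and 1.19 to 1.44 for Exoc3l4. Without the filter, 20 members were higher and 10 lower at an unadjusted p under 0.05. The share of all features at that p in that fit is not given here, so these counts are no result about the members.

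**Figure D1:**
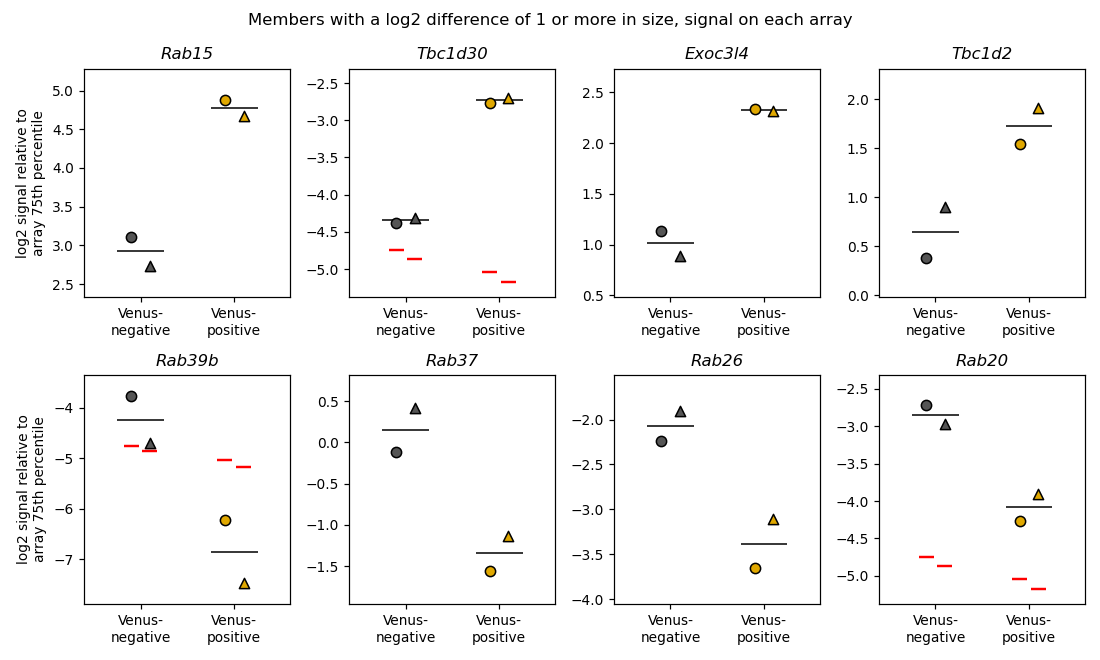
Normalised log2 signal (log2 processed signal relative to the 75th percentile of the array) of the 8 members with a fitted difference of 1 or more in size, on the 2 Venus-negative (grey) and 2 Venus-positive (yellow) arrays; circles are replicate 1, triangles replicate 2, black bars the means, and red ticks the lowest signal counted as well above background on that array, drawn where it falls near the values. The fractions do not overlap in any panel, Rab39b lies below the red ticks on both Venus-positive arrays, and each panel has its own axis.

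The start regions of these genes differ in kind. RefSeq promoter windows (build GRCm38.p6, 250 bases before to 50 after a start site) were found for 82 of the 99 members, taking the 5′-most start where several are listed. They held a median of 21.5 CpG dinucleotides, against 7.0 over 27026 promoters of the same length. The windows of Rab15 and Exoc3l4 are shown because the signals of both genes rose, and those of Rab20 and Rab39b because their signals were lower in Venus-positive cells, without passing the test. The table holds none for Tbc1d30, Rab37 or Rab26. Capitals mark matches, on either strand, to the ETS factor core CCGGAA, the GATA factor motif AGATAA, the homeodomain motif TAATTA, the E-box motif CACGTG or the TATA box motif TATAAA, and no matches overlapped in these windows.
Rab15: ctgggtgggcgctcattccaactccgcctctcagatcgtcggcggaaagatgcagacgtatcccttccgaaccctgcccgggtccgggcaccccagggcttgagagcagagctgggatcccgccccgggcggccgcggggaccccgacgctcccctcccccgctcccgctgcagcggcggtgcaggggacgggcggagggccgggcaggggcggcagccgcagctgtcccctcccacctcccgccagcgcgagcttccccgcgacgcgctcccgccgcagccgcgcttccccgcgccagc
Exoc3l4: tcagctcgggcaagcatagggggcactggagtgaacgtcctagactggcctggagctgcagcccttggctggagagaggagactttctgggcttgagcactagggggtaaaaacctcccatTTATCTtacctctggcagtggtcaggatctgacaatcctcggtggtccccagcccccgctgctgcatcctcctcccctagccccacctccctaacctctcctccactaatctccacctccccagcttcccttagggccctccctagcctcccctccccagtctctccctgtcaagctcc
Rab20: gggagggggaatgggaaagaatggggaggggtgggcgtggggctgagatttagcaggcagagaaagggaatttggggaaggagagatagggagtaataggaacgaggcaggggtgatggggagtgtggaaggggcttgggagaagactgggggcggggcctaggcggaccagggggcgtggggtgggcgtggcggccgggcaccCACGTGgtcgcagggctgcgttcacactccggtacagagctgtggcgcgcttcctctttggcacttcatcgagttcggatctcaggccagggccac
Rab39b: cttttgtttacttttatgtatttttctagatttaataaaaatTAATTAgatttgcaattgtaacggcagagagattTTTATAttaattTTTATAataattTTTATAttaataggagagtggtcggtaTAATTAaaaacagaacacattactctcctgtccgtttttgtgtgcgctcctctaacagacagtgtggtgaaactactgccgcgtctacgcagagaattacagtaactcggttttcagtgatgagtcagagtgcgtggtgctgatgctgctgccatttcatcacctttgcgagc

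The Rab15 window (chr12:76822475-76822774, minus strand, 1 of 4 starts listed) holds 38 CpG dinucleotides and none of the motifs. That of Exoc3l4 (chr12:111417180-111417479, plus strand, 1 of 2 starts listed) holds 4 CpG dinucleotides and 1 GATA match. The Rab20 window (chr8:11478591-11478890, minus strand) holds 16 CpG dinucleotides and 1 E-box, and the Rab39b window (chrX:75578182-75578481, minus strand) 10 CpG dinucleotides, 2 homeodomain and 3 TATA box matches. The ETS core was present in 28.0% of the members' windows and in 15.2% of all promoters, and the E-box in 15.9% and 7.24%. Shares for the TATA box were 4.88% and 14.2%, for the GATA motif 3.66% and 11.4%, and for the homeodomain motif 2.44% and 5.32%. The members' windows also had a higher median GC content, 61.8% against 52.7% over all promoters. The ETS and E-box letters contain a CpG, while the TATA box, GATA and homeodomain motifs are mostly A and T. Whether the shares differ beyond this base composition was not tested. A match is a description of the letters and no evidence of binding.

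Among the Rab genes, 55 of 57 were tested, 1 passed as higher and 0 as lower, and 9 were higher and 8 lower at an unadjusted p under 0.05. Their median difference was 0.14, against 0.003 over all features, and 35 of the 55 differences were positive. Fractions did not overlap for 24 Rab genes with higher and 15 with lower signals in Venus-positive cells, against 29.1% and 28.4% of all features. The median SE of a member was 0.13.

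Among early endosome Rabs 6 of 7 had a positive difference, with a median of 0.18 and 0 passing in limma (2 higher and 1 lower at an unadjusted p under 0.05). Rab5a, a founding Rab of early endosomes, read 3.42 and 3.23 against 3.56 and 3.46, a difference of 0.18 (95% interval -0.16 to 0.53). Its paralogs Rab5b and Rab5c had differences of 0.12 (-0.27 to 0.51) and 0.39 (-0.19 to 0.98). No Rab5 gene passed, and the upper ends of these intervals stay below 1. Rab21, known for the traffic of integrins, read -1.36 and -1.59 against -0.86 and -0.80 (difference 0.64 ± 0.13, adjusted p = 0.102). Rab31 read 0.97 and 0.95 against 1.34 and 1.58 (0.49 ± 0.13, adjusted p = 0.140). The fractions of both genes were apart. Rab20, which acts in phagosome maturation, was the exception in sign, at -2.72 and -2.98 against -4.26 and -3.90. Its difference was -1.23 ± 0.19, with an adjusted p of 0.0696, and -0.52 with normexp.

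In the recycling group, where Rab15 belongs, 6 of 9 differences were positive and the median was 0.14. Rab11a, the general Rab of recycling endosomes, read 3.25 and 3.24 against 3.62 and 3.70, a difference of 0.41 ± 0.10 (adjusted p = 0.124). With a variance prior that depends on signal, its adjusted p was 0.0482. Its close paralog Rab11b differed by 0.14 (95% interval -0.12 to 0.41). Rab25, the third Rab of this branch and known from epithelia, read -3.34 and -3.67 against -4.46 and -4.11 (difference -0.78 ± 0.20, adjusted p = 0.138). Within the Rab11 branch the signs were thus mixed, and none of the 3 passed.

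Late endosome, lysosome and autophagy Rabs had a median difference of 0.01, with 6 of 11 positive. Rab7, the main Rab of late endosomes, read 2.39 and 2.26 against 2.25 and 2.31, and its difference of -0.04 had a 95% interval of -0.35 to 0.26. Rab7b differed by 0.42 ± 0.13 (adjusted p = 0.184). Rab12, which directs transferrin receptor to lysosomes, read 1.59 and 1.93 against 2.53 and 2.75. Its fractions were apart, with a difference of 0.88 ± 0.17 and an adjusted p of 0.101. It passed with normexp (0.0350) and with the signal-dependent prior (0.0438). Of all features, normexp called 591 higher and 694 lower and that prior 731 and 923, against 183 and 320 without these changes. Rab29, a Golgi and lysosome Rab tied to the kinase LRRK2, had a difference of 0.66 ± 0.31 (adjusted p = 0.299). Its replicates spread almost as widely as the fractions, from -1.18 to -0.55 and from -0.46 to 0.05.

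Rabs of the endoplasmic reticulum and Golgi had a median of 0.08 with 7 of 12 positive. Most of them lay within 0.5 of no difference (9 of 12). Rab39b, a neuronal Rab of this group, could be measured in a single fraction. It was well above background on both Venus-negative arrays, at -3.76 and -4.71, and on neither Venus-positive array. The fitted difference did not pass (adjusted p = 0.115), and as a bound its signal in Venus-positive cells was at least 1.83-fold lower. Rab19 read -2.78 and -2.97 against -3.58 and -3.52 (difference -0.68 ± 0.12, adjusted p = 0.0859).

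Among Rabs of exocytosis and secretory granules, 7 of 11 differences were positive with a median of 0.19, yet the 2 largest were negative. Rab37, a Rab of secretory granules, read -0.11 and 0.41 in Venus-negative and -1.55 and -1.13 in Venus-positive cells. The difference of -1.49 ± 0.26 missed the threshold (adjusted p = 0.0846). A second Rab37 probe, dimmer on average and read on the same arrays, gave -1.54 ± 0.34. Rab26, of secretory granules and synaptic vesicles, read -2.23 and -1.91 against -3.65 and -3.11, a difference of -1.31 ± 0.25 (adjusted p = 0.0949). Both passed with normexp, at an adjusted p of 0.0482, as differences of -1.13 for Rab37 and -0.65 for Rab26. Rab27b, a granule and exosome Rab, read -1.95 and -0.81 against -0.82 and -0.92, so that the fractions overlapped and the 95% interval ran from -0.70 to 1.72. The 5 Rabs grouped as ciliary or of other roles had a median of 0.05 and 0 passed in limma, with 1 lower at an unadjusted p under 0.05.

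**Figure D2:**
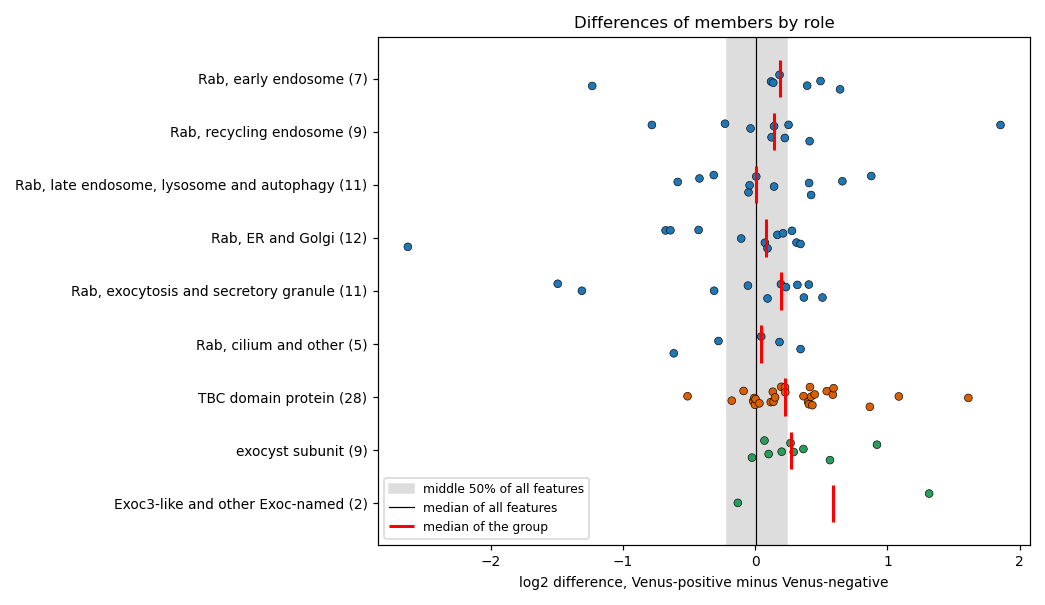
Log2 difference (Venus-positive minus Venus-negative, x axis) of each of the 94 members tested, grouped by role on the y axis with the number tested in brackets; colours mark Rab (blue), Tbc1d (orange) and Exoc (green) genes, red bars the median of a group, the grey band the middle 50% of all 23547 features and the black line their median. Group medians of Rab genes run from 0.01 to 0.19 and those of TBC proteins and exocyst subunits are 0.23 and 0.27, while members measured in both fractions reach from -1.49 to 1.85; the point at -2.63 is Rab39b, for which the data give only a bound of -0.87.

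Most TBC genes had a positive difference. Of 31 genes, 28 were tested, all well above background on 4 arrays, and 22 differences were positive with a median of 0.23. Positive differences made up 50.4% of all features. Tbc1d30 alone passed, as higher, which 0.777% of all features did. Before adjustment, 9 TBC genes with higher and 1 with lower signals had a p under 0.05, beside 12.3% and 11.4% of all features. The fractions were apart for 17 with higher and 2 with lower signals, beside 29.1% and 28.4%.

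Tbc1d2, or Armus, which inactivates Rab7 and is known for the breakdown of E-cadherin, read 0.38 and 0.90 against 1.55 and 1.91. Its difference of 1.09 ± 0.25 (2.12-fold) did not pass (adjusted p = 0.120). A second probe gave 1.11 ± 0.23. Tbc1d4, or AS160, which holds back glucose transporter vesicles until insulin acts, read -0.61 and -0.17 against 0.38 and 0.58 (0.87 ± 0.20, adjusted p = 0.123), and its second probe gave 0.53 ± 0.18. Tbc1d5, a Rab7 regulator bound to the retromer coat, read 1.00 and 1.24 against 1.59 and 1.84 (0.59 ± 0.16, adjusted p = 0.144). The fractions of these 3 genes were apart, and none passed.

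Tbc1d8b, which is dim, had a difference of 0.59 ± 0.27 (adjusted p = 0.290). The lower TBC genes with separate fractions were Tbc1d16, which inactivates Rab4A in human cells, and Tbc1d14, a regulator of autophagy and recycling endosomes. Tbc1d16 read 1.47 and 1.50 against 1.01 and 0.95, a difference of -0.51 ± 0.10 (adjusted p = 0.0956). Tbc1d14 read 4.01 and 3.89 against 3.84 and 3.70, with a difference of -0.18 and a 95% interval of -0.50 to 0.15.

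Most exocyst subunit genes also had a positive difference, under 0.5 in size for 7 of 9. All 9 were well above background on 4 arrays, and 8 had a positive difference, against 50.4% of all features. At an unadjusted p under 0.05, 3 were higher, against 12.3% of all features. The median difference of the subunit genes was 0.27, and 0 passed in limma. The largest was Exoc6b, a paralog of the Sec15 subunit that binds Rab11, at 3.68 and 3.38 in Venus-negative and 4.53 and 4.38 in Venus-positive cells. The fractions were apart, with a difference of 0.92 ± 0.15 (1.89-fold) and an adjusted p of 0.0801, while a second probe gave 0.49 ± 0.15. Its paralog Exoc6 differed by 0.29 ± 0.12 (adjusted p = 0.259).

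Exoc2, or Sec5, which binds Ral GTPases, read 2.20 and 2.23 against 2.72 and 2.84. The difference was 0.57 ± 0.10 (1.48-fold, adjusted p = 0.0900). Both Exoc6b and Exoc2 passed with normexp (adjusted p = 0.0351 and 0.0482) and with the signal-dependent prior (0.0281 and 0.0356). Exoc8, or Exo84, the other Ral-binding subunit, had overlapping fractions, with -0.31 and 0.06 against -0.01 and 0.30. Its difference was 0.27 (95% interval -0.30 to 0.84), and a second probe gave -0.23 ± 0.29.

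Exoc4, or Sec8, read 0.52 on both Venus-negative arrays and 0.81 and 0.96 on the Venus-positive arrays (0.36 ± 0.11, adjusted p = 0.169). A second Exoc4 probe gave 0.11 ± 0.12. Exoc1 (Sec3) and Exoc7 (Exo70), which bind the plasma membrane lipid PIP2, differed by -0.02 (95% interval -0.30 to 0.25) and 0.20 (-0.15 to 0.55). Exoc3 (Sec6) and Exoc5 (Sec10) differed by 0.07 (-0.33 to 0.47) and 0.10 (-0.17 to 0.38). The ends of these 4 intervals all lie within 0.55 of no difference. The sign of Exoc1 turned with centring on the array median and with normexp, and that of Exoc3 with probe averaging. Exoc3l, which acts in insulin granule release, read 2.99 and 2.92 against 2.51 and 3.14 (difference -0.13, 95% interval -0.84 to 0.57), in contrast to its relative Exoc3l4.

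**Figure D3:**
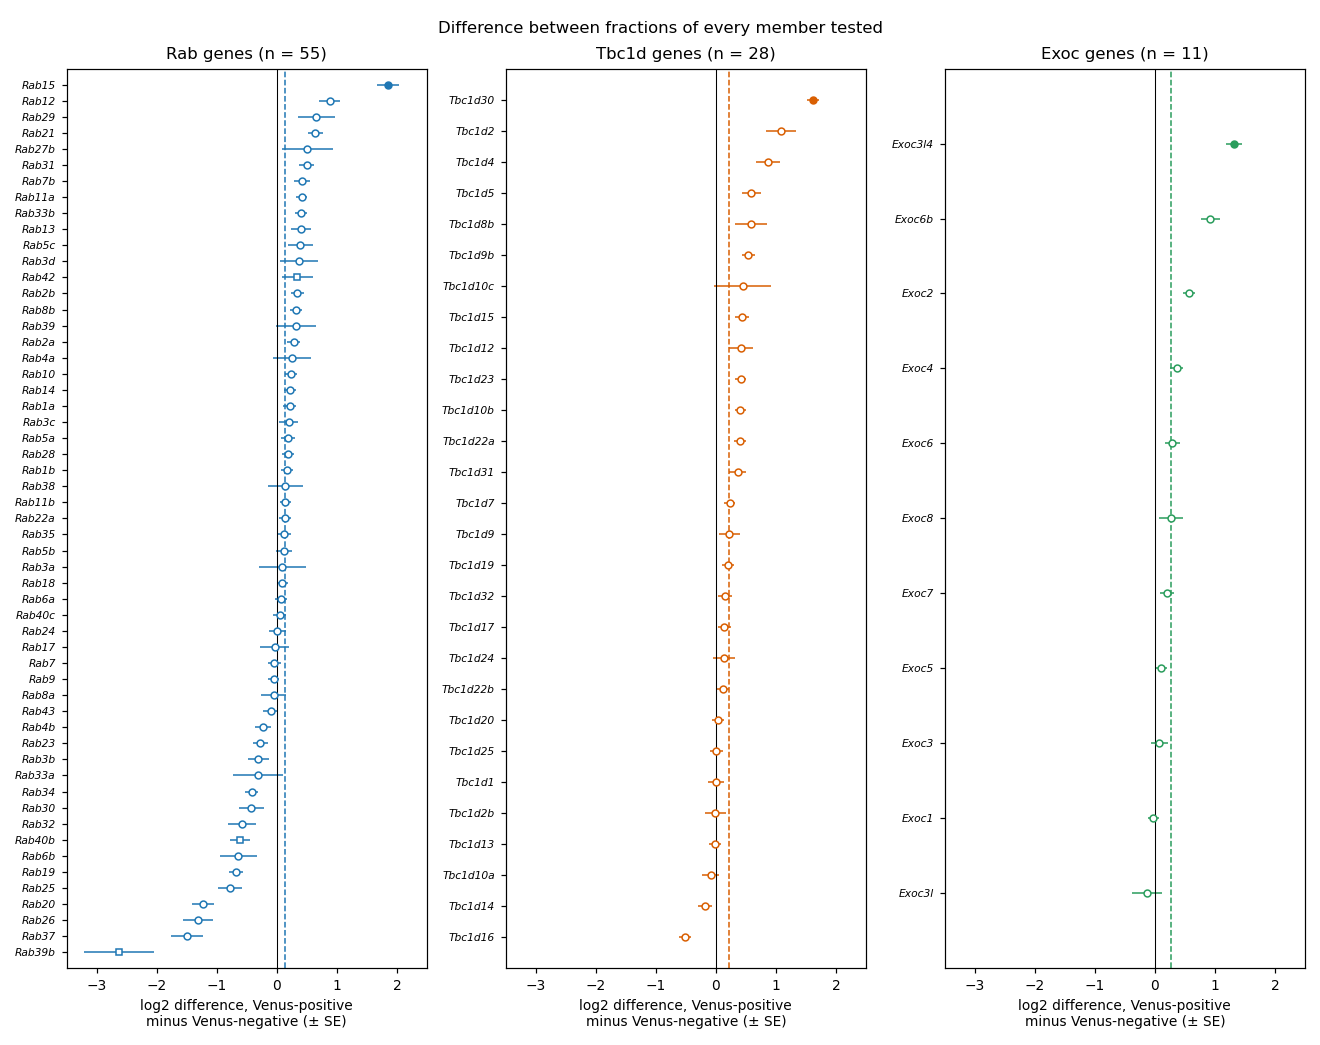
Log2 difference (Venus-positive minus Venus-negative, x axis, bars ± SE) of every member tested, ranked within the 55 Rab, 28 Tbc1d and 11 Exoc genes; filled points passed an adjusted p under 0.05, squares were not well above background on all 4 arrays, and dashed lines are family medians. The filled points are Rab15, Tbc1d30 and Exoc3l4, and the Rab panel alone reaches below -1.

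Further probes of the members, read on the same arrays, allowed values to be compared between probes of a gene. Of 31 members with several probes, 26 had at least 1 further probe in the test, 29 probes in all. For 28 of the 29 the difference lay within 0.5 of the representing probe, and the remaining probe, the second of Rab15, gives only the bound stated above. The sign was shared for 19. The remaining probes belonged mostly to genes near no difference, as with Rab5b, where 3 further probes gave -0.04, 0.05 and -0.11. Rab30, a Golgi Rab, had -0.43 ± 0.21 on its representing probe and -0.86 ± 0.14 on a dimmer one. The dimmer probe was well above background on both Venus-negative arrays but on only 1 Venus-positive array, so it entered through Venus-negative cells alone. Cross-hybridisation between close paralogs was not tested, since no probe sequences were used.

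**Figure D4:**
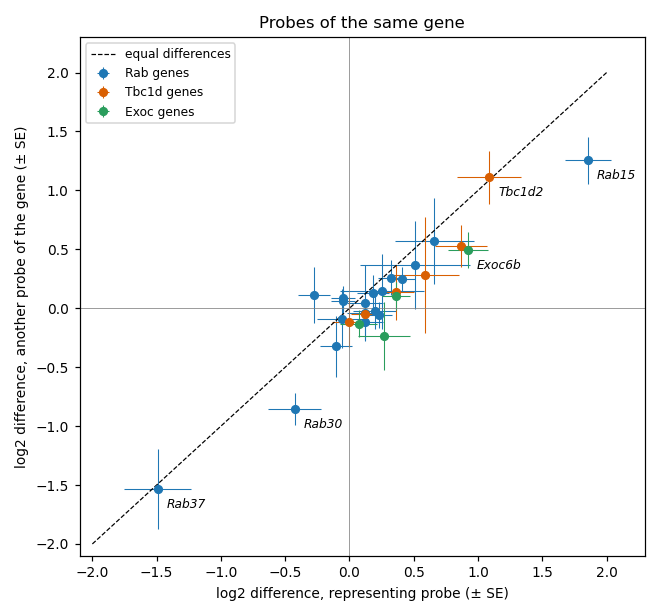
Log2 difference (Venus-positive minus Venus-negative) of 29 further probes (y axis) against that of the probe representing the same gene (x axis), bars ± SE, for 26 genes; the dashed line marks equal differences and colours the gene family. Rab37 and Tbc1d2 lie on the line. The Rab15 point (1.26 against 1.85) is a fitted difference whose second probe was not well above background in Venus-negative cells. The lower limit for that probe is 1.13.

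Regulators and partners of the members were taken from 6 lists holding 187 genes, of which 169 were tested. In limma 0 passed as higher and 1 as lower, with 34 higher and 10 lower at an unadjusted p under 0.05, and their median was 0.09. The lower gene was Rab11fip4, an effector that binds Rab11, at -1.26 and -1.36 in Venus-negative and -3.45 and -3.40 in Venus-positive cells. Its difference was -2.12 ± 0.10 (adjusted p = 0.0342), and -1.23 with normexp. The call was lost without the filter on dim signals (adjusted p = 0.143) and without any single array (0.127 to 0.161). The other 43 effectors tested did not pass, and the list's median was 0.04.

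Over all features 12.3% were higher and 11.4% lower at an unadjusted p under 0.05. Exocyst partners and SNAREs had the highest list median, 0.29, with 22 of 26 positive, 8 higher and 1 lower at that p. The largest difference among those measured on 4 arrays was that of Rgl1, an exchange factor for Ral, at 2.36 and 2.23 against 3.19 and 3.44 (1.02 ± 0.14, adjusted p = 0.0636). Rab exchange factors had a median of 0.01, with 6 of 35 higher and 2 lower at an unadjusted p under 0.05. The leading one was Rin3, which activates Rab5-type GTPases (1.00 ± 0.25, adjusted p = 0.137).

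Of 18 GDI, escort and prenylation genes, which deliver Rab proteins to membranes, 3 were higher and 2 lower at an unadjusted p under 0.05 and the median was 0.18. Chm, the escort protein REP1, differed by 0.60 ± 0.10 (adjusted p = 0.0823). Of 10 other Rab GAP genes, 2 were higher and 1 lower, with a median of 0.14, and Grtp1 differed most (-1.14 ± 0.33, adjusted p = 0.160). Of 36 tethering genes of endosome and Golgi, 7 were higher and 0 lower at that unadjusted p, with a median of 0.10, and Trappc9, a TRAPP subunit, led with 0.60 ± 0.11 (adjusted p = 0.0975).

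Marker lists of other cell types were measured in the same fractions. Endothelial markers had a positive difference in 16 of 16 cases (3 passed), and their summed signal, in multiples of the 75th percentile signal, was 316 and 378 in Venus-negative and 635 and 750 in Venus-positive cells. Endoderm and epithelial markers had a negative difference in 8 of 9 tested (2 passed), with sums of 36.3 and 42.9 against 18.3 and 22.6, while Afp, Apoa1 and Ttr were not well above background. The exception was Sox17 (1.35 ± 0.24). The keratin gene Krt18 was the brightest of this list, at 4.35 and 4.75 against 3.16 and 3.38, and weighs most in its sums. Primitive streak markers had negative differences in 13 of 13 (8 passed), with sums of 97.6 and 78.2 against 35.4 and 20.4. Of these 13, 10 were well above background on all 4 arrays. Fgf5, Mesp1 and Mesp2 entered through Venus-negative cells alone, which favours a negative sign, and Fgf5 and Mesp1 are among the 8. Pluripotency markers summed to 76.9 and 50.3 against 30.6 and 20.9, with 7 of 9 negative and 1 (Tdgf1) passing. Dppa5a, which did not pass, was the brightest of them in Venus-negative cells, at 5.83 and 5.08 against 3.36 and 2.62. It therefore weighs most in the Venus-negative sums, while Klf4, at 4.08 and 3.57, weighs most in the Venus-positive sums. Neither pair of sums stands for the whole list. Klf4 and Nanog had positive differences (0.51 and 0.23).

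Neural markers had a median of -2.46 over 7 tested (2 passed as lower), but sums of 14.9 and 16.7 against 16.0 and 17.8. OP9 stromal and adipocyte markers summed to 78.1 and 74.9 against 65.5 and 49.1, with 10 of 13 negative, 0 passing in limma and Dcn not well above background. At an unadjusted p under 0.05, 0 of these stromal markers were higher and 1 lower. Blood and platelet markers summed to 60.1 and 123 against 56.7 and 65.5, with 0 of 11 passing in limma, and 0 higher and 1 lower at that unadjusted p. The mesoderm list of the gate had 6 of 10 differences negative, a median of -0.30 and sums of 406 and 345 against 341 and 333, with Foxf1 not well above background. In that list 1 gene passed, as higher, Tek, which is also an endothelial marker here, and 3 were higher and 3 lower at an unadjusted p under 0.05. The part of these cell populations in the differences of Rab15, Exoc3l4, Rab25 or the other members was not tested.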

How the data were processed

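Total RNA of sorted cells was labelled with Cy3 and read on 4 arrays, per the labels' protocols. The deposited scanner tables hold each spot's intensity as written by Agilent's software (Feature Extraction 10.10.1.1), background-subtracted and detrended within each array and not scaled between arrays, per the file headers. The authors' deposited value table holds the same intensity times 1 constant per array (1.98 to 2.44).

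From 62976 spots per array, 59305 were not controls (55681 probes). Outlier spots (152 to 196 per array) were left out, log2 signals were centred on each array's 75th percentile (347 to 429), and spots of a probe were averaged. Between 50.7% and 53.0% of spots were well above background and 0 were saturated. With 4 arrays, their number limits the precision. Accessions were matched to symbols through RefSeq (GRCm38.p6): 27235 probes had 1 symbol. Probes that exceeded background in both replicates of a fraction were kept, and the brightest represented a gene: 23547 features, 13925 of them genes.

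Differences were fitted by limma 3.58.1 under R 4.3.3 (lmFit, eBayes, 2 residual and 1.8 prior degrees of freedom). P-values were adjusted over all features (Benjamini-Hochberg, threshold 0.05), and the fit was tested on simulated data. For a gene dim in a fraction the fold is a bound against the lowest signal well above background. The array files hold no mean spot signal, so normexp (offset 50) used the median signal.

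Alternatives were normexp, median centring, quantile normalisation, other filters on dim probes, a signal-dependent variance prior, a replicate block, the deposited table, averaged probes and leaving out each array. Members, lists and roles were chosen with earlier results of these data known. The rule for named genes took Hoxb6, Kdr, members past the threshold, all tested Exoc genes, the 5 largest non-overlapping differences in each direction among Rab and Tbc1d genes on 4 arrays, bounds, the Rab5, Rab7, Rab11 and Rab27 genes, members whose probes differ by over 1, and the leading gene of each pathway list. Rab30, Tbc1d22bos and the second probes were named after their values were seen. Which neural and blood markers were dim is not reported here.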

Additional observations from a re-analysis of the deposited data

How the results depend on the processing

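The 3 called increases kept their direction in all alternatives run. In the fits without an array this was fixed in advance, since their fractions do not overlap. The number of members called higher was 6 with normexp, 10 with the signal-dependent prior and 0 with dim probes kept, and 0 in each fit without an array. Members called lower were 2 with normexp, 2 with the signal-dependent prior and 3 with the replicate block. Of all features, those called higher and lower were 183 and 320 in the fit reported above and 591 and 694 with normexp. They were 731 and 923 with the signal-dependent prior, 351 and 375 with median centring and 390 and 544 with the replicate block. With that block, in which Rab26, Rab37 and Rab39b passed as lower and Tbc1d2 as higher, 4 members were higher. The labels do not say that replicate numbers pair samples, although deviations from the group means correlated across features (r = 0.413) between the arrays numbered 1. The number also marks the slide row, and whether row or culture lies behind this was not tested. Pathway genes called higher were 8 with normexp, 2 with median centring, 1 each with quantile normalisation, with all 4 arrays required above background and with the deposited table, and 10 with the signal-dependent prior. Those called lower were 0 with dim probes kept, 2 with the signal-dependent prior, 2 with the replicate block and 0 without any array. The Tbc1d median was 0.14 with normexp and 0.30 with median centring. The Exoc median was 0.34 with median centring, 0.20 with averaged probes and 0.11 to 0.30 without an array. Median centring moved the median of all features to 0.07, and keeping dim probes moved it to -0.17. Signs turned for Exoc1 (0.0050 with normexp, 0.045 with median centring), Rab7 (0.027 with median centring) and Exoc3 (-0.030 with averaged probes), and without an array the ranges were -0.011 to 0.25 (Rab5b), -0.11 to 0.024 (Rab7), -0.063 to 1.08 (Rab27b), -0.078 to 0.22 (Exoc3), -0.057 to 0.0095 (Exoc1), -0.45 to 0.19 (Exoc3l). The cause of these shifts was not tested. Where an array is left out, its fraction has 1 array, which is assumed to vary like the other fraction. Low signal over background limits Rab39b, Rab40b, Rab42 and Tbc1d30.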
